A study of Mus musculus with 14 samples.

Results

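Of 57979 genomic regions carrying a peak of histone H3 lysine 9 acetylation (H3K9ac) in at least 1 of 12 libraries of regenerating mouse liver, 259 were called almost only in one of the study's 2 groups. They were selected on peak calls alone: each was a merged set of overlapping peaks with a peak in 5 or 6 libraries of one group and in 0 or 1 library of the other. In all, 95 regions were called almost only in the libraries titled d22 (0.164% of all regions) and 164 almost only in those titled pbs (0.283%). Because presence or absence of a peak chose these regions, their own occupancy, tags, scores and widths are descriptions without a test. What the choice did not use was the tag count of the nearest region called in all 12 libraries, and this was tested. That count is summed over called peaks of the same libraries, so it is not independent of the choice.

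All libraries were chromatin immunoprecipitations with an antibody to H3K9ac from livers of male C57BL6/J mice aged 2 to 3 months, taken 12 h after partial hepatectomy, the surgical removal of part of the liver that starts regrowth of the rest. The design concerns H3K9ac when the drop in glucose that follows this operation is put off. By title, 6 libraries are d22 and 6 are pbs. Peaks of each group were called against that group's pooled input DNA, so input pool and title group cannot be told apart. The treatment field contradicts the titles: it gives the d22 libraries the vehicle, diluted phosphate-buffered saline, and the pbs libraries 22.5% dextrose in that vehicle, and it gives both input pools dextrose. The groups are therefore named by title, and no condition is assigned to either. The labels do not state whether the libraries of a group are from different animals. The p-values therefore reflect library-to-library spread only, and that may be technical.

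Acetylation of lysine 9 on histone H3 is laid down by acetyltransferases and removed by deacetylases, and it is found at the starts of active genes and at many active enhancers. In liver, a strong domain often covers the start of a highly expressed metabolic gene and its first introns. A peak caller divides such a domain into peaks, and its weaker flanks and separate enhancers may or may not reach the caller's threshold in a given library.

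The deposited lists held 26352 to 44585 peaks in d22 libraries and 26377 to 30780 in pbs libraries, from 6343891 to 13084426 tags after filtering in d22 libraries and 6385610 to 13259411 in pbs libraries. The library d22 4 stood apart with 44585 peaks, against 26352 to 30698 in the other d22 libraries, and 15916 of all regions came from it alone. Of 10 hepatocyte markers, 10 had a region called in all 12 libraries at the gene's start, or at either end where no strand is given. Such a region was found for 2 of 6 endothelial, 1 of 5 cholangiocyte and 1 of 5 erythroid markers and for 0 of 7 macrophage, 0 of 6 stellate, 0 of 5 neutrophil and 0 of 6 lymphocyte markers. No marker gene carried one of the 259 regions. In whole liver, fewer cells of a type and less acetylation per cell cannot be told apart.

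Of the 259 regions, 19 lay at a gene start (within 1 kb of a start listed by RefSeq), and 11 of the 20 promoters there lay wholly inside the region. Shown here are the 250 bases before the start for 4 of these 11, chosen to hold the single d22 case and 3 pbs cases with a known gene, read 5′ to 3′ from RefSeq on build GRCm38.p6, with matches to 6 searched motifs in capitals.
Fhit (called in 5 d22 and 1 pbs libraries; chr14:10453459-10453708, minus strand; a start inside this large gene, which encodes a nucleotide hydrolase): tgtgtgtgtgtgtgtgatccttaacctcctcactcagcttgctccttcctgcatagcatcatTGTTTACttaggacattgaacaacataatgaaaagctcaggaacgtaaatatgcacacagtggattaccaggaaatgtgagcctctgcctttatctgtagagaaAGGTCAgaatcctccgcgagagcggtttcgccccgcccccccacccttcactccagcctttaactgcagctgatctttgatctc
Il1rn (0 d22 and 6 pbs; chr2:24345121-24345370, plus strand; the interleukin-1 receptor antagonist): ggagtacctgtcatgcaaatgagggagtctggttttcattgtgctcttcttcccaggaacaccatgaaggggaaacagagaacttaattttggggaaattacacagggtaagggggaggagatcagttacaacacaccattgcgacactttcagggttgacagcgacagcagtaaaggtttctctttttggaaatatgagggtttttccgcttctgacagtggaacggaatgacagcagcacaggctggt
Alox12 (0 d22 and 5 pbs; chr11:70255371-70255620, minus strand; a lipoxygenase acting on arachidonic acid): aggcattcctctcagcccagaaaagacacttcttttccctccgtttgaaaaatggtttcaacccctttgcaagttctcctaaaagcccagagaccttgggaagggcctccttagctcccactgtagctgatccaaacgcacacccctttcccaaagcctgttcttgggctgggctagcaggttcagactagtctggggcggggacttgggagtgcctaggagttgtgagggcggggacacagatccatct
Dusp2 (1 d22 and 5 pbs; chr2:127335909-127336158, plus strand; a phosphatase of MAP kinases): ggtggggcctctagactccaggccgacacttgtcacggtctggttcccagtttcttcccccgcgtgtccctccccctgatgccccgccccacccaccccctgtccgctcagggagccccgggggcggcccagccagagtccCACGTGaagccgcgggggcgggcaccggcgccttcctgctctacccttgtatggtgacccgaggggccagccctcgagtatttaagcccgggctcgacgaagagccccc
The motifs were searched on both strands of the 250 bases. The Fhit promoter held the FOX core TGTTTAC, which 3.16% of 32807 RefSeq promoters held, and the nuclear receptor half-site AGGTCA, held by 14.0%. The Dusp2 promoter held the E-box CACGTG, held by 6.02% of promoters. The Il1rn and Alox12 promoters held none of the 6. Over all 20 promoters at these 19 regions, 16 held none, and 0 held the CRE core TGACGT (6.47% of all promoters). AP-1 (TGANTCA, 6.75%) was matched at Slc7a1, and the HNF1 half-site (GTTAAT, 6.44%) and the FOX core at Atp2c1. A match is a run of letters and not a bound site.

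The Fhit promoter held 6 CG dinucleotides in its 250 bases, and the 15 promoters at pbs regions held a median of 6 (1 to 28). The other 4 at d22 regions held 10 to 47, but 3 of them had no base inside their region and 1 had 34. The 11488 promoters whose start lay in a region called in all 12 libraries held a median of 17, and the 21319 others a median of 3.

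**Figure D1:**
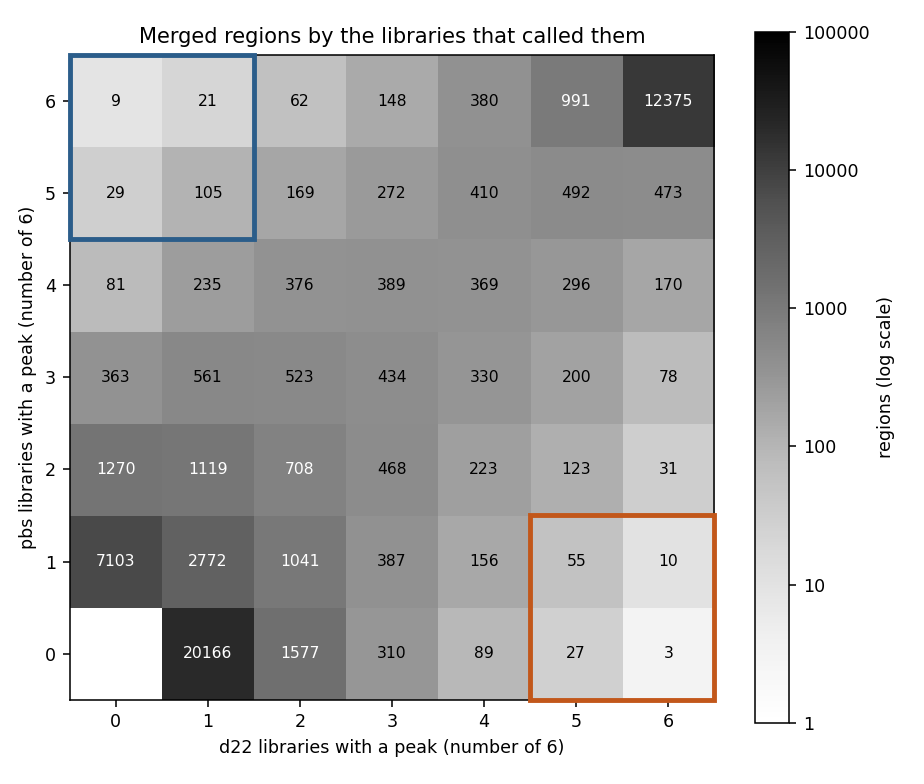
Number of merged regions by how many of the 6 d22 libraries (horizontal) and of the 6 pbs libraries (vertical) had a peak there, with shading on a log scale. The outlined corners hold the 95 regions called almost only in d22 (orange) and the 164 called almost only in pbs (blue). The dark top right cell holds the 12375 regions called in all 12 libraries.

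Few of the 259 regions split the groups completely. In the d22 set, 3 regions had peaks in 6 d22 and 0 pbs libraries, 10 in 6 and 1, 27 in 5 and 0, and 55 in 5 and 1. In the pbs set, 9 had peaks in 0 d22 and 6 pbs libraries, 21 in 1 and 6, 29 in 0 and 5, and 105 in 1 and 5. The steps across the limit of the rule were gradual: 55 regions were called in 5 d22 and 1 pbs libraries, against 156 just outside it in 4 and 1 and 123 in 5 and 2. On the other side, 105 regions were called in 1 d22 and 5 pbs libraries, against 235 in 1 and 4 and 169 in 2 and 5.

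The libraries contributed unevenly to the exceptions. Each d22 library had a peak in 71 to 89 of the 95 d22 regions, and each pbs library in 4 to 15 of them. Each d22 library had a peak in 7 to 41 of the 164 pbs regions, and each pbs library in 125 to 152. The library d22 1 alone had peaks in 41 of the pbs regions and d22 4 in 28, while d22 5 lacked 24 of the d22 regions and pbs 3 lacked 39 of the pbs regions. The library pbs 3 was among the shallowest, with 6385610 tags, as was d22 4 with 6343891. The part of depth in these counts was not tested.

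**Figure D2:**
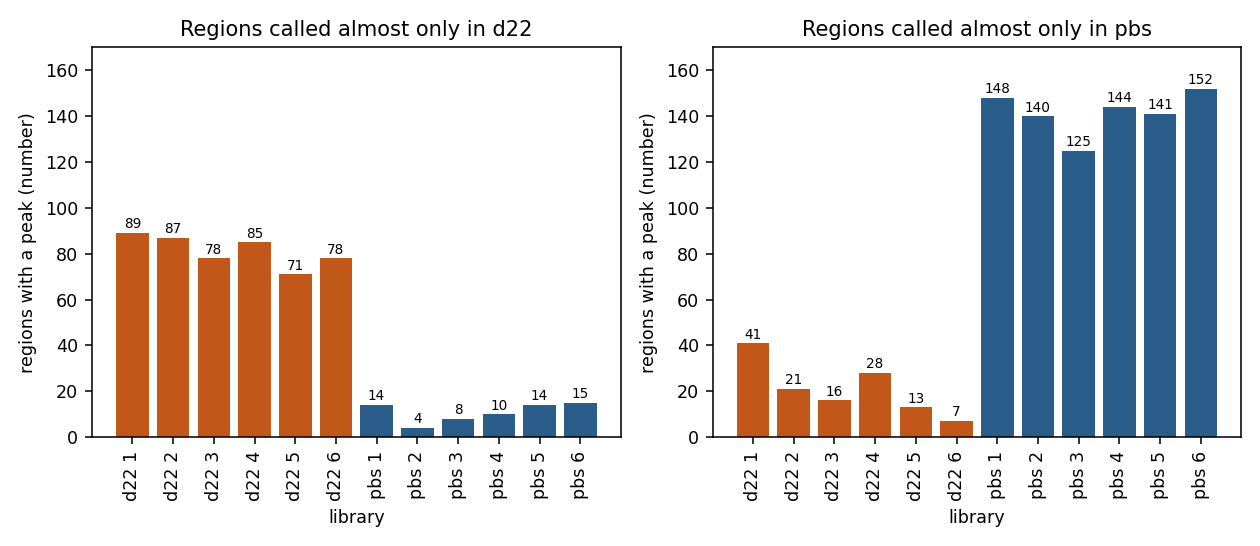
Number of the 95 d22 regions (left) and of the 164 pbs regions (right) with a peak in each library. Orange bars are d22 libraries and blue bars pbs libraries. In the right panel d22 1 stands at 41 and d22 6 at 7, and the pbs libraries lie between 125 and 152.

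The peaks in these regions were weak. The 584 peaks in d22 regions held a median of 18 tags with a median score (-10 times the log10 of the caller's p-value, with 50 as the lowest listed) of 76.3, and the 1032 peaks in pbs regions a median of 18 tags with a score of 74.8. All 357969 peaks had a median of 33 tags and a score of 152, and the peaks of regions called in all 12 libraries 65 tags and a score of 362. In the same range were the peaks of 2743 regions called in 5 to 7 libraries with 2 to 4 from each group (here the evenly called regions), with 18 tags and a score of 73.6. A score under 100 was listed for 75.9% of the peaks in d22 regions and 73.6% in pbs regions, and for 37.9% of all peaks. The caller's false discovery rate had a median of 28.6% for peaks in d22 regions and 41.6% in pbs regions. It was 36.3% for evenly called regions, 12.4% for all peaks and 8.7% for regions called in all 12 libraries. Median fold enrichment was 10.4, 12.0 and 15.6 for d22 regions, pbs regions and all peaks. Over all peaks, the mean of the library medians of the false discovery rate was 9.97% in d22 and 22.3% in pbs libraries. The mean of the library medians of fold enrichment was 14.1 in d22 and 16.9 in pbs libraries. Median widths of the merged regions were 1067 bp in the d22 set, 1099.5 bp in the pbs set and 1147 bp in the evenly called set. A library without a peak has no listed count there, so its tags may lie just under the threshold. With only peaks of a score of at least 70, 56 regions met the rule for d22 and 107 for pbs, and of the 95 d22 and 164 pbs regions described here 14 and 22 were among them.

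The 3 regions called in 6 d22 and 0 pbs libraries lay on chromosomes 7, 9 and 11. The region at chr11:72438533-72439733, inside Ggt6, a gene of the gamma-glutamyltransferase family, held 1.91 (lowest), 2.48 (median) and 4.41 (highest) RPM (tags per 1000000 tags after filtering) in the 6 d22 libraries. The region at chr7:19493607-19495442, inside Exoc3l2, which is related to a subunit of the exocyst, held 1.36, 2.13 and 3.45. The region at chr9:58271517-58272613 lay between genes, 8.99 kb from Stoml1, and held 1.04, 1.26 and 4.26. The highest values at Ggt6 and near Stoml1 were those of d22 4, and the other d22 libraries held 1.04 to 1.56 near Stoml1. All 3 regions had no listed peak in any pbs library, and those at Ggt6 and Exoc3l2 still met the rule when only peaks with a score of at least 70 were used. Their nearest regions called in all 12 libraries had log2 fold changes in tags (d22 minus pbs) of -0.13 at Ggt6, 0.06 at Bloc1s3 and 0.34 at Stoml1, none of them past the test.

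The 9 regions called in 0 d22 and 6 pbs libraries were spread over 8 chromosomes. The one at chr2:24345076-24345781 covered the start of Il1rn, whose promoter is shown above, and held 1.52, 2.18 and 2.41 RPM in the 6 pbs libraries (lowest, median and highest). Its nearest region called in all 12 libraries lay 295 kb away. The highest medians of these 9 were at chr15:36280137-36281562 inside Rnf19a, a ubiquitin ligase gene, with 1.21, 3.00 and 5.66, and at chr14:75337958-75339054 inside Zc3h13, which encodes a part of the complex that methylates adenosine in mRNA, with 1.89, 2.95 and 3.66. A region at chr8:69544505-69545669, between genes and 21.6 kb from the predicted gene Gm7697, held 2.15, 2.91 and 4.07. At chr14:34619965-34620772, 19.8 kb from Opn4, the gene of the light-sensing protein melanopsin, the values were 1.71, 2.52 and 3.13.

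The other 4 had medians of 1.52 to 2.35 RPM. At chr7:78835019-78835995 inside Det1, which encodes a component of a ubiquitin ligase, the 6 pbs libraries held 1.73, 2.35 and 3.13 RPM. At chr18:56473960-56474952 inside Gramd3 they held 1.25, 1.95 and 3.34. At chr13:4388988-4389873, 44.4 kb from Akr1c6, which encodes an aldo-keto reductase acting on steroids, they held 1.42, 1.75 and 2.43, and at chr17:13129380-13130090 inside Unc93a 1.22, 1.52 and 1.89. None of the 9 had a listed peak in a d22 library, and those at Il1rn, Zc3h13, Det1 and near Opn4 still met the rule with scores of at least 70. Their nearest regions called in all 12 libraries had log2 fold changes between -0.48 (near Hnmt) and 0.13 (near Sod2), none past the test.

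Among the d22 regions with an exception or a gap, one between genes near Asf1b had the highest mean, 4.41 RPM, with 1.91 (lowest), 2.76 (median) and 10.7 (highest) in 5 d22 libraries and no peak in a pbs library. Nedd4, a ubiquitin ligase gene, had 1.60 (lowest), 4.40 (median) and 6.94 (highest) RPM in the 6 d22 libraries, and 2.36 in pbs 5, the 1 pbs library with a peak. Dcaf1, a substrate receptor of a ubiquitin ligase, had 2.27, 2.79 and 8.99 in 5 d22 libraries and 1.96 in pbs 1. Ubxn6, whose product binds the ATPase p97, had 1.56, 2.97 and 7.72 in 6 d22 libraries and 3.28 in pbs 4, at a region less than 1 kb from its start. In all 3, the value of the 1 pbs library lay within or below the range of the d22 libraries, and the highest d22 value was that of d22 4. Vmp1, needed for autophagy, Ifngr2, a subunit of the interferon-gamma receptor, and Arid1b, a subunit of a chromatin remodelling complex, were also among the 15 with most tags at or inside a gene.

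In the pbs set, the highest medians in pbs libraries were inside Dlgap2 and Bsn. Dlgap2 had 5.48, 7.34 and 9.55 RPM (lowest, median and highest) in 5 pbs libraries and no peak in a d22 library. Ces1f, a liver carboxylesterase gene, had 1.73 RPM in d22 4, and 2.90, 5.44 and 7.43 (lowest, median and highest) in 6 pbs libraries. Cyp4a12b, a fatty acid hydroxylase gene, had 2.03 in d22 1, and 2.19, 4.68 and 5.13 in 5 pbs libraries. Eci2, which encodes an isomerase of unsaturated fatty acid oxidation, had 2 regions: one with 3.06 in d22 3 and 1.72, 3.64 and 4.28 in 6 pbs libraries, the other with 6.46 in d22 4 and 2.34, 3.41 and 5.43 in 5 pbs libraries. In the second Eci2 region, and at Bsn (13.6 in d22 4, against 2.67, 5.87 and 9.22 in 6 pbs libraries), the 1 d22 library lay above all pbs libraries. The same held inside Lrrc8d (4.95 in d22 1, at most 2.61 in pbs libraries) and Pctp (3.66 in d22 2, at most 2.62). Ces1f, Cyp4a12b and the Akr1c genes have near-identical copies beside them, and how reads that fit several places were treated is not given in the sources used here, so the gene named there is uncertain.

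Several genes were the nearest gene of more than 1 region of the same set. This was counted within each set, so a gene with 1 region of each set is not listed. In the d22 set Csad, Wasf2 and Zbtb16 were the nearest gene of 2 regions each. In the pbs set Gpam had 3, and Akr1c6, Ces2c, Dlgap2, Dock6, Eci2, Opn4, Rassf4 and Slc7a2 had 2 each. Of 12 pairs of neighbouring regions within 50 kb of each other, 11 were of one set, 2 of them d22 and 9 pbs. The exception was at Scp2, which encodes a sterol carrier protein, where a d22 and a pbs region lay 30.6 kb apart. The regions lay 117 bp apart at Rassf4 and 399 bp apart at Dock6, so such pairs are not separate observations.

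**Figure D3:**
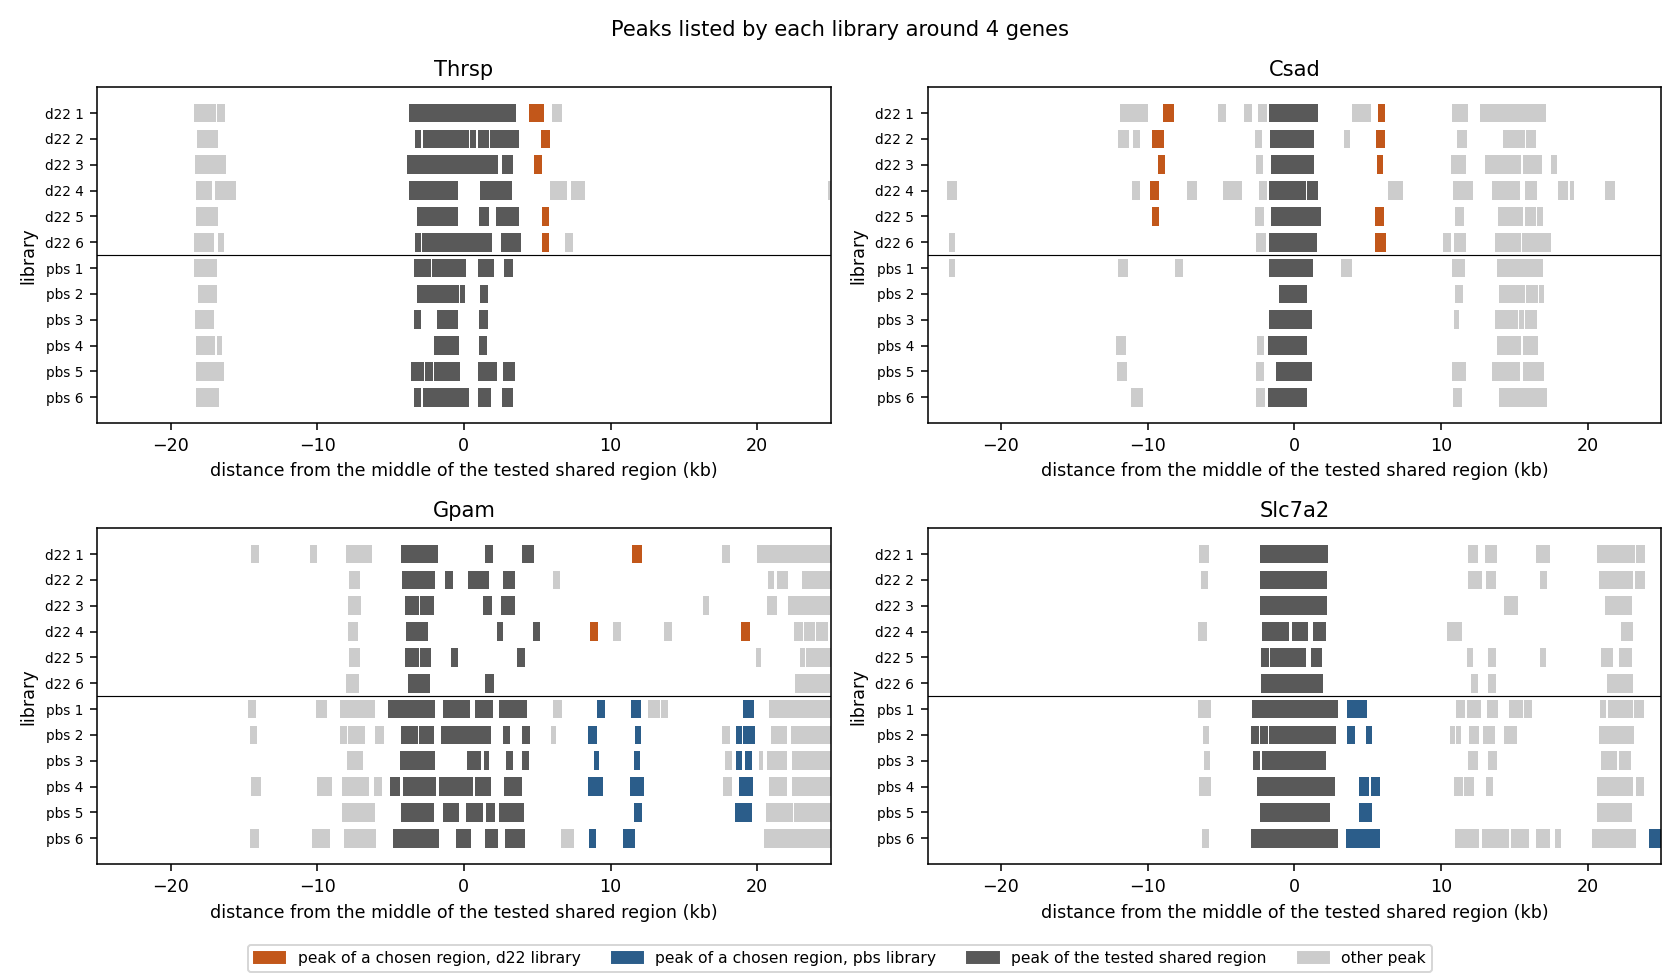
Peaks listed by each library within 25 kb of the middle of the tested shared region at Thrsp, Csad, Gpam and Slc7a2. Each row is a library, d22 above the line and pbs below, and the horizontal axis is distance in kb. Dark grey bars are peaks of the shared region, orange and blue bars the peaks of the regions called almost only in one group (the colour gives the library's group, so the orange bars at Gpam are the exceptions in d22 1 and d22 4), and light grey bars other peaks. At Thrsp and Csad the flanking bars are orange and, because regions without a pbs peak were chosen, absent from all pbs rows. Next to the left one at Csad, which ends at -8183 bp, pbs 1 listed another peak from -8153 to -7577 bp. At Gpam and Slc7a2 they are mostly blue.

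By place, the regions were closer to the evenly called regions than to the regions called in all libraries. In the d22 set, 4 of 95 lay at a gene start, 3 within 1 kb of a gene end of unknown strand, 63 inside a gene and 25 between genes. In the pbs set, 15 of 164 lay at a gene start, 8 at a gene end, 85 inside a gene and 56 between genes. The share at a gene start was 4.21% in the d22 set, 9.15% in the pbs set, 11.4% among evenly called regions and 62.9% among regions called in all 12 libraries. Between genes, the median distance to the nearest protein-coding gene was 14.0 kb in the d22 set and 13.9 kb in the pbs set. Chromosome 11 held the most d22 regions (11) and chromosome 4 the most pbs regions (14). The d22 region on chromosome Y lay 483 kb from the nearest gene, Gm21724. The long arm of the mouse Y is highly repeated, so that position is uncertain.

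Of 372 genes in 16 lists of liver and growth pathways, 11 were the nearest gene of 14 of the 259 regions, and 10 lists had none. The share over all genes was not worked out, so these counts have no background and are descriptions only. The fat synthesis list of 25 genes had 2 d22 regions, near Thrsp, a regulator of lipogenic enzymes, and near Scd1, the stearoyl-CoA desaturase, 9.90 kb away. It also had 4 pbs regions, 3 at Gpam, the acyltransferase of the first step of glycerolipid synthesis, and 1 at Fads2, the delta-6 desaturase. The urea cycle and amino acid list of 24 had 3 pbs regions, 2 at Slc7a2, a transporter of arginine and lysine, and 1 at Agxt, which detoxifies glyoxylate. The clock list of 19 had pbs regions inside Rora, a nuclear receptor of the clock's own feedback loop, and Hlf, a transcription factor of its output. Single regions lay near Ppp1r3b, the subunit that directs a phosphatase to glycogen in liver (d22), inside Ern1, a sensor of endoplasmic reticulum stress (d22), and 59.9 kb from Trib1, a pseudokinase that affects liver lipids (pbs). The lists for the cell cycle, immediate early genes, the acute phase, growth factor signalling, p53 targets, bile acids, fatty acid oxidation, glycolysis, xenobiotic metabolism and liver transcription factors had none. The lists are partial: Eci2, Cyp4a12b and Ces1f, which carried pbs regions, were in no list. An empty list therefore does not mean that its pathway had no region.

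Regions called in all 12 libraries served as the fixed points for distance. The d22 regions lay a median of 7.75 kb from the nearest of them, the pbs regions 13.1 kb and the evenly called regions 12.4 kb. Within 1 kb lay 22 of 95 d22 regions and 25 of 164 pbs regions, and between 1 and 5 kb 21 d22 and 28 pbs regions. Taken to 5 kb this was 45.3% of the d22 set, 32.3% of the pbs set and 32.4% of the evenly called set. Further than 100 kb lay 11 d22 and 28 pbs regions. The nearest shared region was on the side of lower coordinates for 49 d22 regions and of higher coordinates for 46, and for 79 and 85 pbs regions. It had the same nearest gene as the region itself in 72 of 95 d22 and 107 of 164 pbs cases.

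The direction of the nearest shared region's tags was that of the set in 65.3% of cases as summed over its peaks, and in 52.9% per kb of called peak. Tags summed over its peaks were compared in one edgeR fit over all 12375 shared regions, of which 50.9% had a log2 fold change (d22 minus pbs) above 0 and 49.1% below. Beside d22 regions 66 of 95 (69.5%) were above 0, with a median of 0.10. Beside pbs regions 103 of 164 (62.8%) were below 0, with a median of -0.09. Beside evenly called regions 50.9% were above 0, with a median near 0. Together 169 of 259 had the direction of the set that called the region (65.3%), and 61.8% had it per kb of called peak relative to the median of all shared regions. The tags of a neighbour come from the same libraries and input pools as the peaks that chose the region, so the 2 measures share any difference between libraries.

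As summed over peaks, this share was larger up to 5 kb than past it. Up to 5 kb, 34 of 43 neighbours of d22 regions were above 0 and 42 of 53 neighbours of pbs regions below 0. Past 5 kb the counts were 32 of 52 and 61 of 111. Between 1 and 5 kb they were 19 of 21 beside d22 regions and 24 of 28 beside pbs regions, with medians of 0.14 and -0.19. Beside pbs regions the share did not fall steadily with distance. It was 22 of 44 from 5 to 20 kb, 21 of 39 from 20 to 100 kb and 18 of 28 over 100 kb. Among evenly called regions, 443 of 890 up to 5 kb and 954 of 1853 past it were above 0. Just outside the rule, up to 5 kb, 32 of 48 neighbours were above 0 beside regions called in 4 d22 and 1 pbs libraries. Beside those called in 5 d22 and 2 pbs libraries 23 of 38 were above 0. Below 0 were 49 of 80 beside those called in 1 d22 and 4 pbs libraries, and 42 of 62 beside those in 2 and 5. Per kb of called peak, relative to the median of all shared regions, medians beside d22 regions were 0.047 up to 5 kb and 0.007 past it. Beside pbs regions they were -0.057 and -0.042. Counts by distance were not tested against each other.

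**Figure D4:**
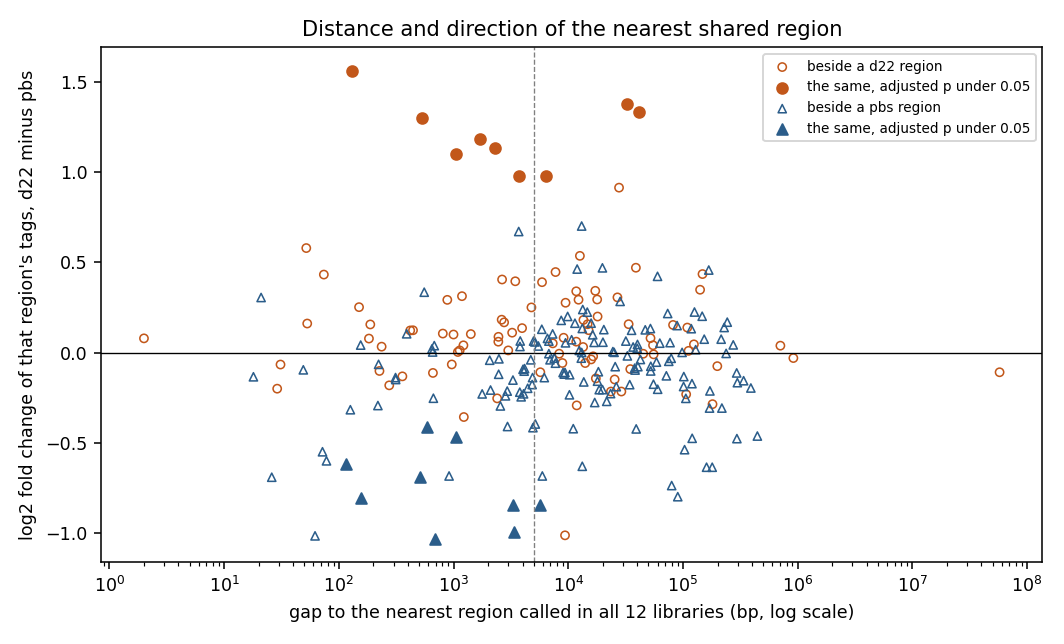
Log2 fold change (d22 minus pbs) of the tags in the nearest region called in all 12 libraries, against the gap to it in bp on a log axis, for 95 d22 regions (orange circles) and 164 pbs regions (blue triangles). Filled symbols passed the edgeR test at an adjusted p of 0.05, and the dashed line marks 5 kb. All filled circles lie above 0 and all filled triangles below it.

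In the test over all 12375 shared regions, 125 passed at an adjusted p of 0.05 (1.01%), 56 of them higher in d22 (0.453%) and 69 lower (0.558%). With library totals as the only scaling, which moves the median of all to -0.22, 26 were higher and 428 lower. The 259 regions had 248 distinct nearest neighbours, 1 of them common to both sets, and 16 of the 248 passed (6.45%). Of the 93 neighbours of d22 regions 8 passed, all higher in d22, and of the 156 neighbours of pbs regions 8 passed, all lower in d22. With library totals 8 neighbours were called higher and 22 lower. Evenly called regions had 2216 distinct neighbours, of which 22 passed (0.993%). In all, 9 d22 and 9 pbs regions lay beside the 16. Where groups are said below not to overlap, this describes regions already picked by the test. The share of all shared regions without overlap was not worked out.

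Of the neighbours that rose in d22, the one beside Ppp1r3b had the highest fold change. The shared region nearest to Ppp1r3b's d22 region, chr8:35410369-35419452, had 161, 243 and 277 CPM in d22 libraries (lowest, median and highest), against 28.1, 82.6 and 110.3 CPM in pbs libraries. The groups did not overlap, and the log2 fold change was 1.56 ± 0.23 (SE, n = 6 each; edgeR adjusted p = 0.00336). The d22 region lay 131 bp from it and 21.3 kb from the listed end of the gene, and held 1.22, 1.91 and 4.41 RPM in 5 d22 libraries. At the start of Thrsp, chr7:97414066-97421845, d22 libraries had 167, 193 and 271 CPM, against 53.7, 80.4 and 111 in pbs libraries, again without overlap (1.30 ± 0.16, adjusted p = 0.000443). The d22 region followed 536 bp beyond it, with 1.15, 1.28 and 2.11 RPM in 5 d22 libraries. In the map, d22 4, the library without a peak in that region, had other peaks just past it.

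At a start listed inside Csad, which makes hypotaurine from cysteine sulfinate, chr15:102186462-102190060, d22 libraries had 68.1, 122 and 153 CPM, against 50.2, 56.4 and 65.4 in pbs libraries (0.98 ± 0.18, adjusted p = 0.0149). The groups did not overlap, but 2 d22 libraries lay just above the highest pbs library. The d22 regions of Csad lay on both sides, 6.38 kb and 3.70 kb away, the second before that start but still inside the gene. Cyp2c70, the enzyme of muricholic acid formation in mice, had 73.8, 97.8 and 133 CPM in d22 libraries and 17.6, 41.0 and 48.7 in pbs libraries (1.37 ± 0.21, adjusted p = 0.00336), 32.3 kb from a d22 region next to Pdlim1. Rgs16, which speeds the shut-off of G proteins, had 113, 146 and 183 CPM in d22 libraries and 28.8, 59.3 and 86.6 in pbs libraries (1.33 ± 0.22, adjusted p = 0.00626), 41.1 kb from a d22 region inside Rgs8. Neither pair of groups overlapped.

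Others that rose lay outside gene starts. Inside Adcy1, an adenylyl cyclase gene, d22 libraries had 57.4, 85.2 and 114 CPM and pbs libraries 26.0, 35.1 and 59.5 (1.13 ± 0.20, adjusted p = 0.00800). Inside Uvrag, a regulator of autophagy, they had 21.9, 41.4 and 49.4 CPM in d22 and 8.43, 18.8 and 24.0 in pbs libraries (1.18 ± 0.25, adjusted p = 0.0307). In both, the lowest d22 library lay below the highest pbs library.

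Of the 8 neighbours that fell in d22, those at Gpam and Fads2 belong to the fat synthesis list and those at Agxt and Slc7a2 to the urea cycle and amino acid list. At a start listed inside Gpam, chr19:55097300-55107635, d22 libraries had 62.1, 79.3 and 94.0 CPM, against 105, 141 and 169 in pbs libraries, without overlap (-0.84 ± 0.12, adjusted p = 0.00167). Beyond it stood the 3 pbs regions of this gene, within 11.4 kb. They held 1.25, 1.34 and 4.17 RPM in 5 pbs libraries, 1.17, 1.98 and 3.91 in 6, and 1.66, 3.03 and 3.23 in 5. The third lies next to another shared region, at -0.60, which did not pass. At the start of Fads2, chr19:10096549-10102986, d22 libraries had 92.8, 103 and 124 CPM and pbs libraries 161, 177 and 213, without overlap (-0.80 ± 0.09, adjusted p = 0.000443). Its pbs region began 156 bp away.

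At Ephx2, the soluble epoxide hydrolase of fatty acid epoxides, chr14:66118175-66125539, d22 libraries had 104, 123 and 136 CPM, against 151, 187 and 208 in pbs libraries (-0.62 ± 0.10, adjusted p = 0.00553). At the start of Agxt, chr1:93134612-93137395, they had 12.7, 28.7 and 45.1 CPM in d22 and 46.5, 56.7 and 76.1 in pbs libraries (-1.03 ± 0.21, adjusted p = 0.0270). Neither pair of groups overlapped. Pctp, a carrier of phosphatidylcholine, had 38.4, 54.6 and 91.1 CPM in d22 and 90.3, 111 and 165 in pbs libraries, with the groups just overlapping (-0.99 ± 0.21, adjusted p = 0.0274).

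The other 3 were at Ank3, Crot and Slc7a2. Ank3, which encodes the membrane adaptor ankyrin-G, had 35.1, 54.8 and 66.8 CPM in d22 and 68.8, 89.0 and 100.4 in pbs libraries (-0.69 ± 0.15, adjusted p = 0.0289). Crot, the peroxisomal carnitine octanoyltransferase, had 152, 189.8 and 203 CPM in d22 and 207, 239.8 and 323 in pbs libraries (-0.47 ± 0.11, adjusted p = 0.0447). Slc7a2, at chr8:40861095-40867018, had 151, 165 and 180.2 CPM in d22 and 181, 219 and 253 in pbs libraries (-0.41 ± 0.09, adjusted p = 0.0414). None of the 3 pairs of groups overlapped. A further shared region at Slc7a2, 26 bp from its other pbs region, stood at -0.69 with an adjusted p of 0.0720 and did not pass.

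**Figure D5:**
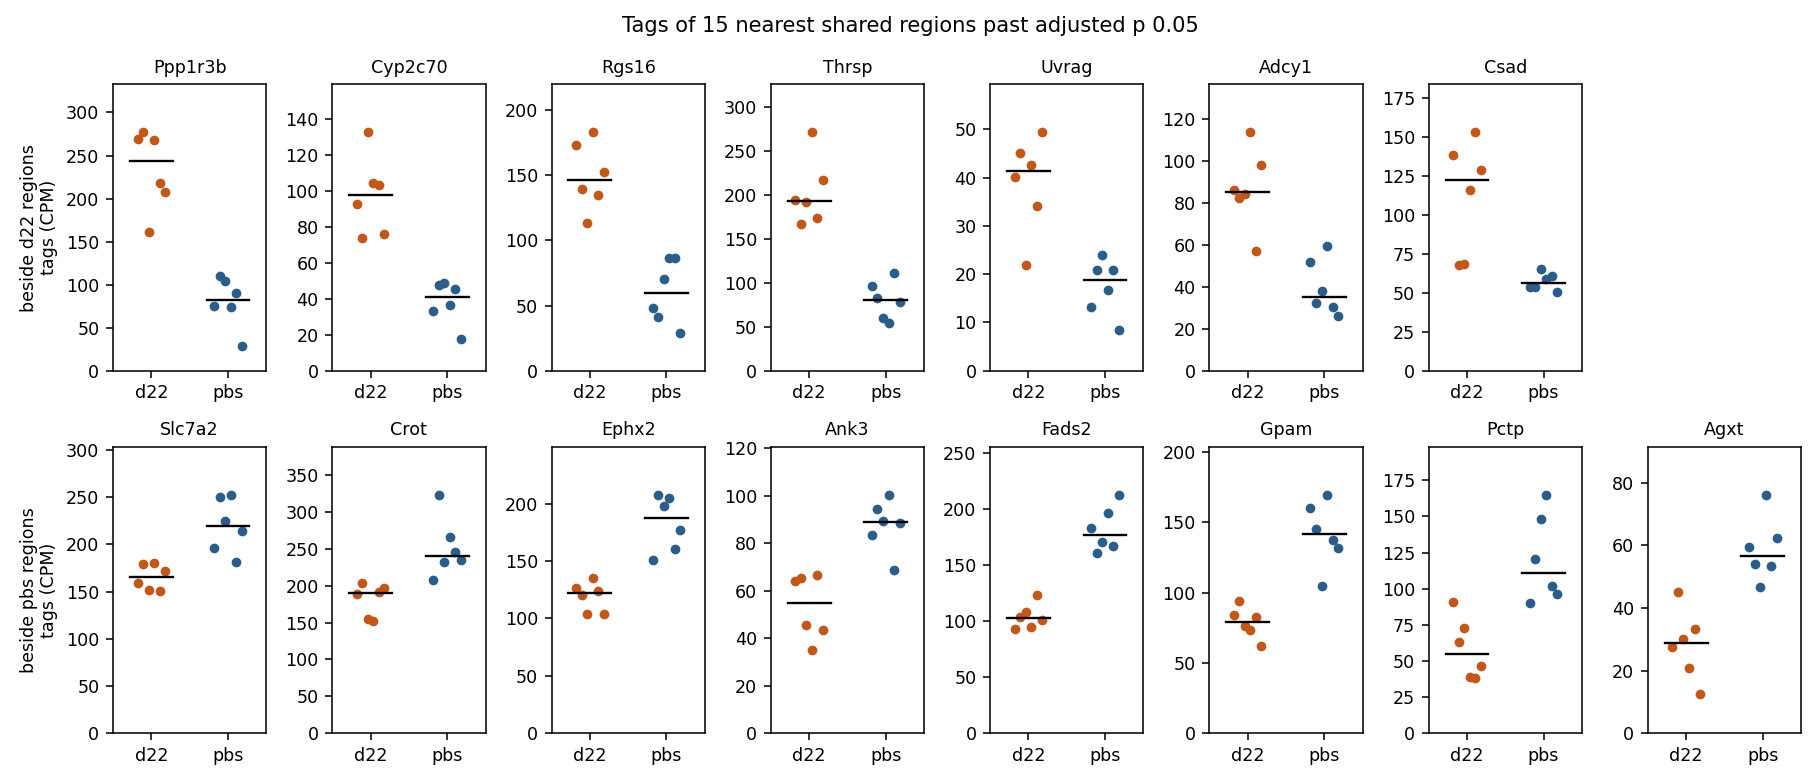
Tags in CPM of 15 of the 16 nearest shared regions that passed the edgeR test, 1 point per library and a bar at the median, with d22 (orange) left of pbs (blue) in each panel and axes from 0. The upper row lies beside d22 regions and the lower row beside pbs regions. The groups overlap at Uvrag, Adcy1 and Pctp.

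Several neighbours with changes as large did not pass. Beside d22 regions, the shared region near Scd1, 27.7 kb away, had a log2 fold change of 0.91 (adjusted p = 0.153), and that of Ptpa, 9.37 kb away, -1.01, against the direction of its set (adjusted p = 0.115). Beside pbs regions, the shared regions nearest Uaca at -1.01 (adjusted p = 0.386), Eci2 at -0.68 (adjusted p = 0.242), Ces1d at -0.74 (adjusted p = 0.172) and Tm4sf1 at -0.80 (adjusted p = 0.0885) had the direction of their set. The shared region of Ralgapb (0.70, adjusted p = 0.117) had the opposite one.

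The 16 calls differed in whether they held when 1 library was left out. Leaving out any 1 library kept the calls at Ppp1r3b, Cyp2c70, Rgs16, Thrsp, Adcy1, Csad, Ephx2, Fads2 and Gpam, with the highest adjusted p at 0.0417 (Csad). Agxt lost it without d22 1, pbs 4, pbs 5 or pbs 6 (up to 0.0782) and Ank3 without d22 3, d22 6, pbs 2, pbs 3, pbs 4 or pbs 6 (up to 0.0782). Uvrag lost it without any of d22 1, d22 2, d22 6, pbs 1, pbs 4, pbs 5 and pbs 6 (up to 0.0773) and Pctp without any of d22 2, d22 4, d22 5, d22 6, pbs 2, pbs 3 and pbs 4 (up to 0.0710). Slc7a2 lost it without any library but d22 4, pbs 1 and pbs 5 (up to 0.136), and Crot without any but pbs 1 (up to 0.117). The fold changes kept their direction throughout: 1.03 to 1.32 at Uvrag, -1.21 to -0.88 at Agxt, -1.17 to -0.88 at Pctp, -0.76 to -0.60 at Ank3, -0.52 to -0.38 at Crot and -0.46 to -0.36 at Slc7a2. The tags are sums over called peaks, and the mean called length moved with them in all 16: 6333 bp in d22 and 4083 bp in pbs libraries at Thrsp, for example, and 3276 bp in d22 and 6672 bp in pbs libraries at Gpam. Per kb of called peak, 5 of the 12375 shared regions passed (0.0404%), 1 of them among the 16, at Ppp1r3b (adjusted p = 0.0371). On that scale the median of all shared regions was 0.08, and of the 8 neighbours of pbs regions the one at Gpam lay above it, by 0.14. Of the 18 regions beside the 16, those at Uvrag and Ank3 still met the rule with scores of at least 70.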

How the data were processed

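H3K9ac peaks of 12 libraries (6 titled d22, 6 titled pbs) were analysed from the deposited peak tables; no table of the pooled inputs was used here. The submitters' processing notes name CASAVA 1.8, Novoalign, the build mm10 and MACS 1.4.2. The file headers give a MACS run per library against the pooled input of its title group, the p-value cutoff 1e-05, the genome size 1.87e+09 and 1 tag kept per position. Tag length was 48 bp in pbs 1, pbs 4 and pbs 6, and 49 bp elsewhere. Per the file headers, the authors' columns used are unscaled tag counts per peak, the score (-10 log10 p), the fold enrichment as a ratio and the false discovery rate as a percent. These belong to single peaks and are only described.

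Peaks sharing at least 1 bp were merged with Python 3.11.15 and pandas 2.3.3. Tags of all peaks that one library had in a region were added up. RPM are tags per 1000000 of the library's tags after filtering. Where a library lists no peak its count is unknown, so tests covered only the 12375 regions called in all 12 libraries. The test was edgeR 4.0.16 in R 4.3.3 (robust quasi-likelihood, TMM scaling, group as the only term, Benjamini-Hochberg adjustment over all 12375, threshold 0.05). CPM are edgeR's, on tags in these regions, and a standard error is the log2 fold change over the square root of F. Alternatives used DESeq2 1.42.0 and limma 3.58.1. Merging and selection were tested on made peaks. On simulated counts for d22 minus pbs over 12375 regions, the fit found 45 of 100 changes of 1.5-fold and 84 of 100 of 2-fold. No 2 libraries agreed within sampling noise (chi-square per degree of freedom 2.41 to 10.3 over 66 pairs).

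Genes came from RefSeq tables of GRCm38.p6, which has mm10's coordinates: 49980 genes with ends but no strand or exons, 21900 of them protein-coding, of which 17492 (79.9%) had a start in the promoter table. A gene start is within 1 kb of a listed start. A gene end of unknown strand is within 1 kb of an end of a protein-coding gene that has none. The naming rule took the regions called in 6 libraries of one group and 0 of the other, up to 15 more per set with most tags at or inside a gene, those in a gene list, and every nearest shared region that passed. It covers 28 d22 and 37 pbs regions, of which part are given in full. 1 of the 16 neighbours that passed is not reported here. The other 67 d22 regions held means of 1.32 to 4.41 RPM and the other 127 pbs regions 1.35 to 3.37. Genes with several regions, the 4 promoters printed and the large neighbours that did not pass were picked after their values were seen. The regions and lists were chosen with earlier results of these data known.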

Additional observations from a re-analysis of the deposited data

Results flagged for a closer look

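One value stood apart from the rest of its group by a gap test (Dixon's critical value at 95%) among 40 sets of per-library values checked, and chance alone passes about 1 set in 20. The peak table of d22 4 was the longest at 44585 peaks, while those of its group otherwise ran from 26352 to 30698, and its depth was 6343891 tags after filtering. It had a peak in 85 of the 95 d22 regions and 28 of the 164 pbs regions. With its list left out and at most 1 gap and 1 exception allowed as before, 157 regions were called almost only in d22 and 212 almost only in pbs. Without it, 139 shared regions and 17 neighbours passed the test, and 14 of the 16 neighbours kept their call.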

How the results depend on the processing

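The sets depend on the peak threshold. With scores of at least 70, 56 regions were called almost only in d22 and 107 almost only in pbs, of which 14 d22 and 22 pbs regions were among the 95 and 164. Requiring 6 and 0 libraries left 3 d22 and 9 pbs regions. Leaving out 1 library at a time, with 1 gap and 1 exception still allowed, gave 127 to 212 d22 and 212 to 321 pbs regions. With fewer libraries that rule is easier to meet, and 97.6% to 100% of each set were kept. Joining peaks up to 200 bp apart (82 d22 and 150 pbs regions, with 73 of the 95 and 135 of the 164) and taking the 26352 best peaks of every library (75 d22 and 126 pbs regions, with 47 of the 95 and 89 of the 164) kept the counts within 1.5 times. Of the shared regions, 454 passed with library totals as the only scaling (26 higher and 428 lower), 272 with DESeq2 and 5 per kb of called peak, and 64 to 139 without 1 library. Of the distinct neighbours, 30 passed with library totals, 1 per kb and 10 to 17 without 1 library. The share of neighbours with their set's direction was 71.0% with library totals and 52.9% per kb (66.4% and 61.8% relative to the median of all regions), and 64.1% to 68.0% without 1 library. Per kb of called peak, Crot (0.0498), Ephx2 (0.0810), Fads2 (0.0084) and Gpam (0.23) changed sign, but relative to the median of all regions on that scale (0.08) only Gpam did (0.14). The cause was not tested. DESeq2 size factors and a minimum count of 30 kept all 16 calls. The replicate number did not pair libraries: correlations of same-numbered libraries ran from -0.01 to 0.16, and 1 of 6 d22 libraries correlated best with its own number. With the replicate block, 128 shared regions and 16 neighbours passed, and 14 of the 16 kept their call (Uvrag at 0.0694 and Ank3 at 0.0552 did not, with log2 fold changes of 1.196 and -0.703, no smaller than in the fit without it). Peaks in these regions held a median of 18 tags, so a region without a peak was not detected at this depth, which does not show that the mark was absent.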
